A study of Mus musculus with 2 samples.

Results

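The Polycomb complex genes described here are Ezh1, Ezh2, Eed, Suz12, Bmi1, Ring1, Rnf2, Cbx2, Cbx7 and Cbx8. They were taken by gene name from the non-control spots of the arrays, which gave 10 genes on 16 spots, of 28785 genes or transcripts on 43379 spots. The samples were 2 subcutaneous tumours of RMS3, which the labels call a PRMS cell line without spelling the term out. Male C57BL/6J hosts received 1000000 RMS3 cells in 200 µl PBS under the skin, and tumours were collected 2 weeks later. The labels give no genotype, age or passage and do not say whether the tumours grew in separate mice, one protocol line calls the tumours metastatic, and both come from 1 cell line. RNA of each tumour was measured on its own single-colour array, and there was no control group, so the data hold 1 tumour on each side of any difference and allow no p-value.

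Polycomb proteins keep genes silent through the complexes PRC2 and PRC1. PRC2 methylates a lysine in the tail of histone H3 through Ezh1 or Ezh2, which need Eed and Suz12 to be active. PRC1 attaches ubiquitin to histone H2A through the ligases Ring1 or Rnf2 with a partner such as Bmi1, and its Cbx proteins bind the methylated histone. In muscle precursors Ezh2 is known for holding muscle genes silent until differentiation, and Ezh2 is typical of dividing cells whereas Ezh1 is also found in resting ones.

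All 10 Polycomb genes were well above background in both tumours, and none differed by 2-fold or more between them. As a background, 61.2% of all genes with a usable spot were detected on both arrays. Of the 13945 genes detected on both, 6.45% were at least 2-fold apart, 3.87% higher in tumour 1 and 2.59% higher in tumour 2, so a count of 0 among 10 is near that share. With all unflagged spots 59.2% were detected on both arrays, 6.44% were 2-fold higher in tumour 1 and 5.15% in tumour 2 (11.6% in either), and the Polycomb counts were again 10 detected and 0 apart by 2-fold. Cbx2, a chromodomain subunit of PRC1, was furthest apart, with a difference of -0.73 on the log2 scale (lower in tumour 2). Ring1, a ubiquitin ligase of PRC1, was furthest in the other direction at 0.52, and its probes did not give the same size.

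Signals below are the processed signals of the scanner software in intensity units, each with the error that this software gives for the spot. Levels and differences are log2 values after division by each array's 75th percentile (995.0 in tumour 1 and 901.9 in tumour 2), and a difference is tumour 2 minus tumour 1. A level may be compared between tumours for 1 probe, not between probes. Probes printed several times away from damaged areas gave a standard deviation of 0.23 for the difference of a repeat spot (182 probes, 1257 spots). This is the technical error within the arrays, not the spread between animals. It was 0.33 for probes below a signal of 100 and 0.20 for those of 1000 or more.

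**Figure D1:**
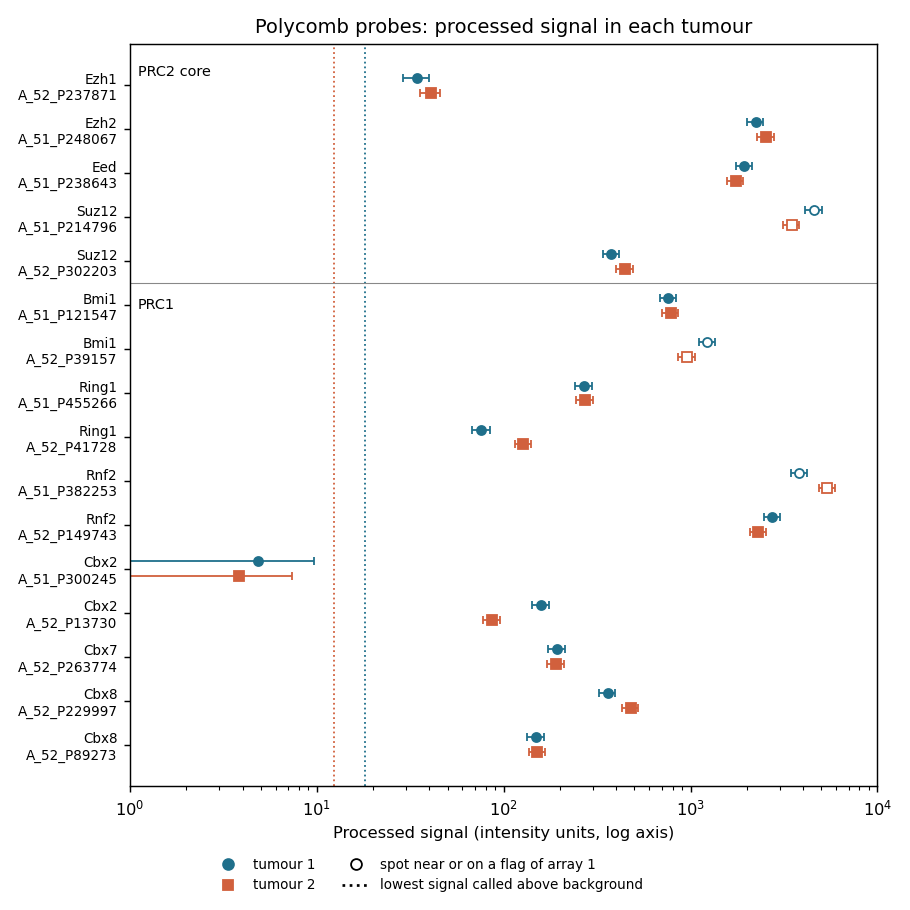
Processed signal (intensity units, log axis) of the 16 Polycomb spots in tumour 1 (circles) and tumour 2 (squares), with the scanner software's error as bars; bars that reach below the axis are clipped, open symbols mark spots near or on a flag of array 1, and dotted lines show the lowest signal called above background on each array. Every spot lies right of the dotted lines except the second Cbx2 probe, at 4.84 and 3.83.

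Array 1 carried 1128 spots with an outlier flag, against 69 on array 2, most of them in the first 338 of 532 rows. The standard deviation of a repeat-spot difference was 0.61 with all unflagged spots, against 0.23 away from flags, so spots within 2 rows and columns of such a flag were left out. This removed 27.8% of the non-control spots and 3 of the 16 Polycomb spots. The 3 were 1 probe each of Suz12, Bmi1 and Rnf2, and each of these genes kept another probe. Around the 13 kept Polycomb spots, the median difference of the surrounding spots (within 5 rows and columns) lay between -0.10 and 0.16. Around the flagged Rnf2 spot it was 0.90. Around the left-out spots of Suz12 and Bmi1 it was 0.08 and 0.06, within the range of the kept spots.

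**Figure D2:**
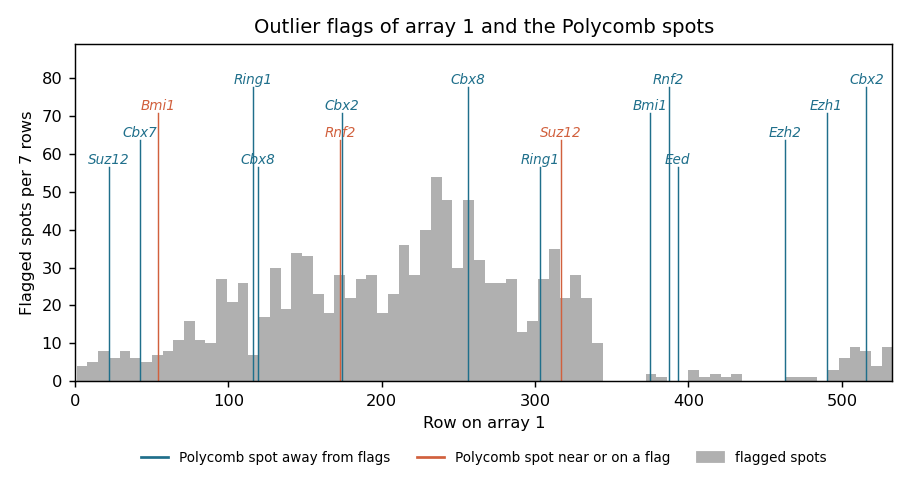
Flagged spots of array 1 in bands of 7 rows (grey bars) against the row on the array, with a vertical line at each of the 16 Polycomb spots; the heights of the lines carry no value. The spots of Ezh1, Ezh2 and Eed lie in the lower rows with few flags, whereas the left-out spots of Bmi1, Rnf2 and Suz12 lie at rows 54, 173 and 317.

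Ezh2, the methyltransferase of PRC2 in dividing cells, had a signal of 2230 ± 223 in tumour 1 and 2524 ± 252 in tumour 2. Both were far from the background, about 47.9 and 53.8 times the local background around the spot. Its level was 1.32 ± 0.23 (SD, n = 2), and the difference was 0.32 with a scanner error of 0.20. Ezh1, the other methyltransferase, gave 34.3 ± 5.28 and 40.7 ± 5.04, only 1.84 and 1.90 times the local background. Its level of -4.66 ± 0.28 (SD, n = 2) stood above the lowest level called on the arrays (-5.78 and -6.19), so Ezh1 was detected weakly in both tumours. Its difference was 0.39 with a scanner error of 0.28. The pair moved by nearly the same amount: Ezh2 minus Ezh1 was -0.07 against a repeat-spot error of 0.33 for such a contrast. The contrast does not depend on how the arrays are scaled to each other by a constant. Its error is pooled over all signals and is too small for this pair. For probes below a signal of 100, as for Ezh1, a single difference already had a standard deviation of 0.33. No shift in their ratio was detectable at this precision.

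The promoters of the pair are shown because Ezh2 is known as a target of E2F factors, which switch on genes of the cell cycle, and because they differ in these letters. Promoters came from RefSeq (GRCm38.p6), and 9 of the 10 genes matched, Cbx2 not among them. Each stretch runs from 100 bases before to 30 bases after the annotated start, on the minus strand, and capitals mark an E2F-type octamer.
Ezh2, chr6:47595001-47595130: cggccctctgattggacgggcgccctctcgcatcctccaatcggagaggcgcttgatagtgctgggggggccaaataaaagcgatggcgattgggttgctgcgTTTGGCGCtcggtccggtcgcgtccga
Ezh1, chr11:101226434-101226563: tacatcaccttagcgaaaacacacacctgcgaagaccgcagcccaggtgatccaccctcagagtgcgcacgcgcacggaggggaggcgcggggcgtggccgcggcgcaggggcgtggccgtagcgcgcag

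The octamers searched were TTTGGCGC, TTTCGCGC, TTTCCCGC and TTTGCCGC on both strands, with overlapping matches counted, over 250 bases before to 50 after the start. Of 32851 such windows 2.26% held at least 1 of them. Among the Polycomb genes the windows of Ezh2 and Suz12 did, and those of the other 7 matched genes did not. Of the genes listed by role below that had a window, 1 of 7 PRC2 accessory genes had a match. So did 0 of 14 other PRC1 genes and 6 of 17 proliferation genes. In Ezh2 the match begins at base 4 of the transcript, and in Suz12 at -219 on the plus strand, in this stretch.
Suz12, chr11:79992857-79992924: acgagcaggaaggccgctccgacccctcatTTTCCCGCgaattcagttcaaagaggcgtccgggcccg

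A match is a description of letters and was not tested for binding. The arrays hold no measure of binding or methylation at these windows. The 9 windows were rich in CG pairs, from 17 in Eed to 41 in Suz12 with a median of 30, against a median of 7 over all windows. Each octamer searched holds a CG pair, so the share of matches over all windows is not a like background for these 9.

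Eed, which binds the methylated histone tail and stimulates the complex, showed the smallest gap on this scale (with all unflagged spots it was at -0.21, and Cbx7 was nearest to 0 at -0.07). Its signal was 1940 ± 194 in tumour 1 and 1742 ± 174 in tumour 2, and after scaling its level was 0.96 ± 0.01 (SD, n = 2) with a difference of -0.01. Suz12, the scaffold of PRC2, gave 377 ± 38 and 444 ± 44.5 on the probe away from flags, a difference of 0.38. The other Suz12 probe, A_51_P214796, beside a flag, gave 4570 ± 457 and 3466 ± 347, a difference of -0.26. The Suz12 probes thus pointed in opposite directions, and no direction is given for Suz12. Suz12 minus Eed was 0.39 away from flags and 0.07 when both Suz12 probes counted, against the error of 0.33.

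Rnf2 and Ring1 are the alternative ubiquitin ligases of PRC1. Rnf2 had 2730 ± 273 and 2301 ± 230 on its probe away from flags, a level of 1.40 ± 0.07 (SD, n = 2) and a difference of -0.10. The other Rnf2 probe, itself flagged on array 1, gave 3820 ± 382 and 5398 ± 540, a difference of 0.64 that was below the 0.90 of the spots around it. Ring1 was measured by 2 probes away from flags. Probe A_51_P455266 gave 268 ± 27.1 and 271 ± 27.3, a difference of 0.16, and probe A_52_P41728 gave 75.9 ± 8.43 and 127 ± 13, a difference of 0.89. Both probes were higher in tumour 2, but only A_52_P41728 by more than the error of a repeat spot, and with the scale of all unflagged spots A_51_P455266 was at -0.04. The gap of 0.73 between them was reached by 20.1% of the 3440 genes with several detected probes. The median for Ring1 was 0.52, and Ring1 minus Rnf2 was 0.63 (1.55-fold), or 0.27 with A_51_P455266 alone for Ring1, against the error of 0.33.

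Bmi1, the partner that activates these ligases and a repressor of the Cdkn2a locus, gave 759 ± 76.0 and 783 ± 78.3 on the probe away from flags. Its level was -0.30 ± 0.13 (SD, n = 2) and its difference 0.19, within the error of a repeat spot. The Bmi1 probe beside a flag gave 1230 ± 123 and 955 ± 95.5, a difference of -0.22. The Bmi1 probes thus disagreed in sign, but on the scale of all unflagged spots both were lower in tumour 2 (-0.01 and -0.42).

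Cbx2 was the Polycomb gene furthest apart between the tumours when undetected probes were left out. Without a detection filter it was at -0.46 and Ring1, at 0.52, was furthest. Its probe A_52_P13730 gave 158 ± 16.3 in tumour 1 and 86.2 ± 9.0 in tumour 2, 4.74 and 3.02 times the local background. The difference was -0.73 (1.66-fold higher in tumour 1) with a scanner error of 0.21, and the surrounding spots had a median of 0.06. It is 3.17 times the standard deviation of a repeat-spot difference, yet 13.6% of all detected genes were at least as far apart. The other Cbx2 probe, A_51_P300245, stayed below the detection call in both tumours (4.84 ± 4.83 and 3.83 ± 3.55), so a single probe carries the value for Cbx2.

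Cbx7 and Cbx8, the other chromodomain subunits, did not follow Cbx2. Cbx7 had 192 ± 19.8 and 190 ± 19.3, a level of -2.31 ± 0.09 (SD, n = 2) and a difference of 0.13. Cbx8 was higher in tumour 2 on both of its probes: A_52_P229997 gave 359 ± 36.1 and 477 ± 47.8, a difference of 0.55. The second, A_52_P89273, gave 149 ± 15.5 and 151 ± 15.4, a difference of 0.16 that became -0.04 on the scale of all unflagged spots. It was designed on a full-length cDNA whose accession was not matched to RefSeq and carries the name Cbx8 from the array file alone. The spots around it had a median of 0.16 as well. Across 7 contrasts between pairs of Polycomb genes, Cbx2 minus Cbx8 was the largest at -1.09 (2.13-fold), followed by Cbx2 minus Cbx7 at -0.86. Both were beyond the error of 0.33, which is technical only. Single-gene differences over all detected genes had a standard deviation of 0.55, and contrasts between other genes were not computed. Cbx8 minus Cbx7 was 0.23.

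**Figure D3:**
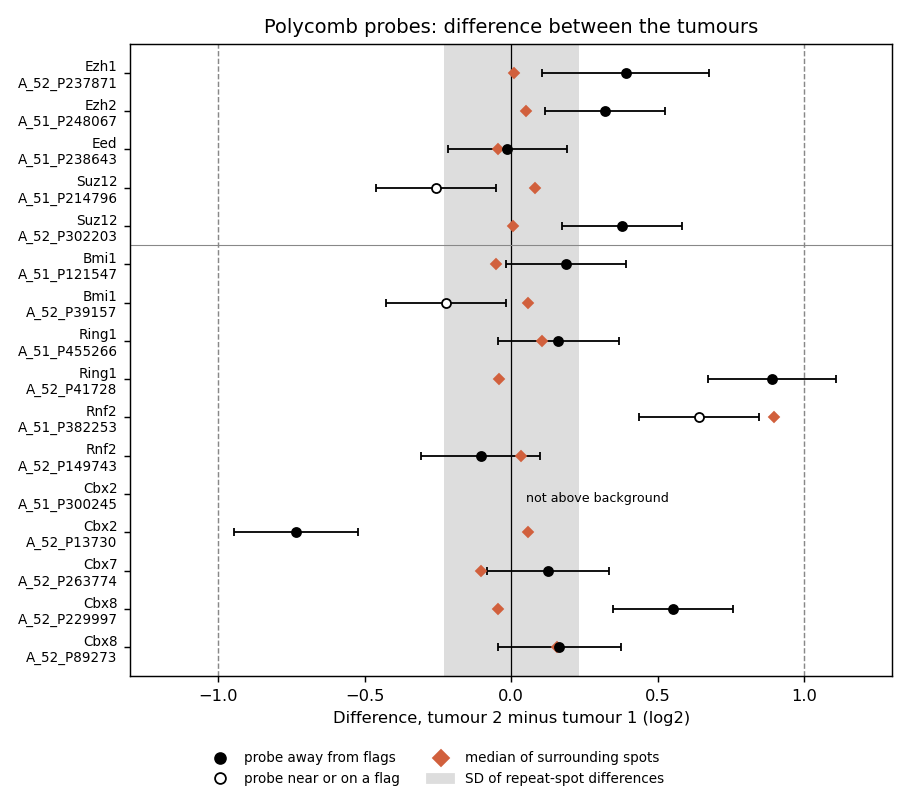
Difference between the tumours (log2, tumour 2 minus tumour 1) of each Polycomb probe above background, with the scanner software's error as bars, beside the median of the surrounding spots (diamonds). The Cbx2 probe A_51_P300245 was not above background and is labelled without a point. The grey band is 1 standard deviation of a repeat-spot difference (0.23) either side of 0 and dashed lines mark 2-fold; the flagged Rnf2 probe lies near the diamond at 0.90, while the Cbx2 probe at -0.73 lies away from its diamond at 0.06.

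With spots near flags left out, 7 of the 10 genes were higher in tumour 2 and 3 (Eed, Rnf2 and Cbx2) in tumour 1, while 51.6% of all detected genes were higher in tumour 1. With all unflagged spots 4 were higher in tumour 2 and 6 in tumour 1, while the share of all genes higher in tumour 1 was 66.2%. In the unscaled values 6 were higher in tumour 2, and 65.9% of all genes in tumour 1. The median over the 10 genes was 0.25, against -0.01 over all detected genes, and it became -0.11 against -0.18 with all unflagged spots. Part of this move is a constant change of scale that all probes share, as for Ezh2, whose single spot went from 0.32 to 0.12. The rest came from the added probes: the kept Suz12 probe was at 0.18 on that scale, whereas the gene, with both probes, was at -0.14. Ezh1, Ring1 and Cbx8 were higher in tumour 2, and Eed and Rnf2 lower, in every setting that measured them. Cbx2 was lower in tumour 2 in all settings but the planned normexp correction, which gave 1.66. Refitted without 11 spots of high background on array 2, this correction gave -0.44.

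**Figure D4:**
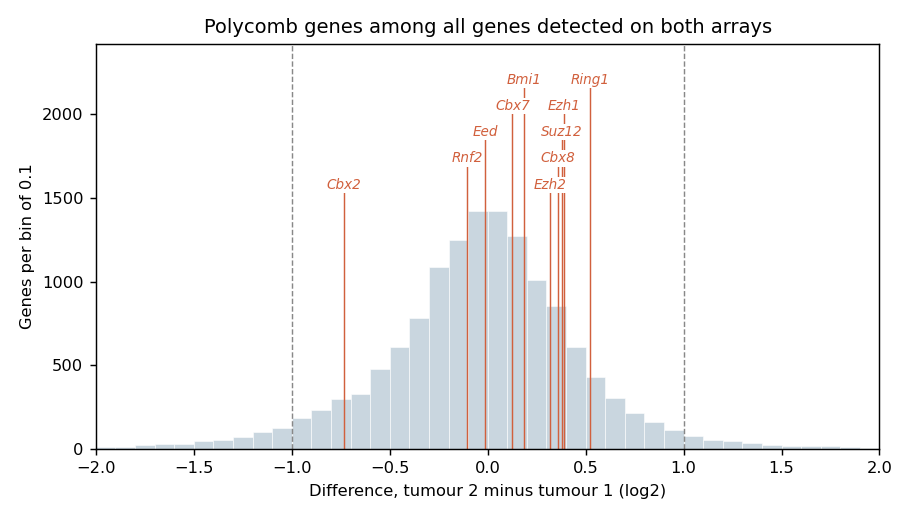
Histogram of the difference between tumours (log2, tumour 2 minus tumour 1) over the genes detected on both arrays, in bins of 0.1 and shown from -2 to 2, with a line at each Polycomb gene; line heights carry no value and dashed lines mark 2-fold. Cbx2 at -0.73 stands apart from the other 9 genes, which lie between -0.10 and 0.52.

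Other genes of the pathway were listed by role. Of 8 accessory genes of PRC2, 7 had a spot away from flags, all 7 were detected on both arrays and none was 2-fold apart. Epop, which links PRC2 to elongins, was highest at 0.68, and Mtf2, which brings PRC2 to CpG islands, lowest at -0.32. Jarid2, a DNA-binding partner of PRC2, had a median of 0.61 over 3 probes that ranged from -0.26 to 1.22. The median of the accessory genes was 0.22, with 5 higher in tumour 2. With all unflagged spots 3 of 8 were higher in tumour 2, and Aebp2, a DNA-binding partner of PRC2, moved from 0.44 to 1.35.

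Of 18 other PRC1 genes 16 were detected on both arrays, 8 higher in each tumour, with a median of 0.02 and none 2-fold apart (7 and 9 with all unflagged spots). Scmh1, a sex comb protein, was highest at 0.78 and Rybp, which stimulates PRC1 variants without Cbx proteins, lowest at -0.43. Phc3 and Scml2 were well above background in tumour 2 alone, each on 1 faint probe (levels of -5.18 and -6.12 in tumour 2). Set against the lowest signal called on array 1, tumour 2 was at 1.52-fold for Phc3 and 0.79-fold for Scml2. That signal is not an upper limit for an uncalled spot. A Kdm2b probe was uncalled in tumour 1 at -5.48, above the lowest called level of -5.78. No least fold is therefore given for either gene. All 3 genes of the H2A deubiquitinase, which removes the mark of PRC1, were detected with differences from -0.06 (Asxl2) to 0.25 (Bap1).

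Among 8 measured genes that oppose Polycomb, all were detected, and 1 was 2-fold apart. This was Smarca4, the motor of a chromatin remodelling complex, whose level was -3.72 in tumour 1 against -2.38 in tumour 2. The difference of 1.34 (2.53-fold) came from 1 probe of 3. With all unflagged spots the median over the 3 probes was 1.14. This is the value of the same probe on that scale, so it is not a second measure. Of the 8 genes 5 were higher in tumour 2, or 3 with all unflagged spots. The demethylases that remove the mark of PRC2 were Kdm6a at -0.27 and Kdm6b at 0.32. The methyltransferase Kmt2a was at -0.06. Kmt2d was not found under the listed names.

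Of 15 genes known as Polycomb targets in various tissues, 12 were detected in both tumours, and Gata4, Wnt1 and T (brachyury) in neither. The inhibitors Cdkn2a and Cdkn2b, which Bmi1 and other Polycomb proteins repress, were detected, with differences of -0.02 and -0.03. With all unflagged spots, Cdkn2a read 0.69. The muscle genes Myog and Ckm differed by 0.13 and 0.50. The fast myosin Myh4 was furthest apart, with a level of 0.96 in tumour 1 against 2.15 in tumour 2. Its difference of 1.19 (2.28-fold; 1.17 and 1.21 on its probes) made it the only target gene 2-fold apart, and with all unflagged spots it was 0.99. Gata6 was 0.89 higher in tumour 2 and Hoxd10 lower by 0.55 on the log2 scale. The median of the list was 0.05, with 6 genes higher in each tumour (5 and 7 with all unflagged spots).

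**Figure D5:**
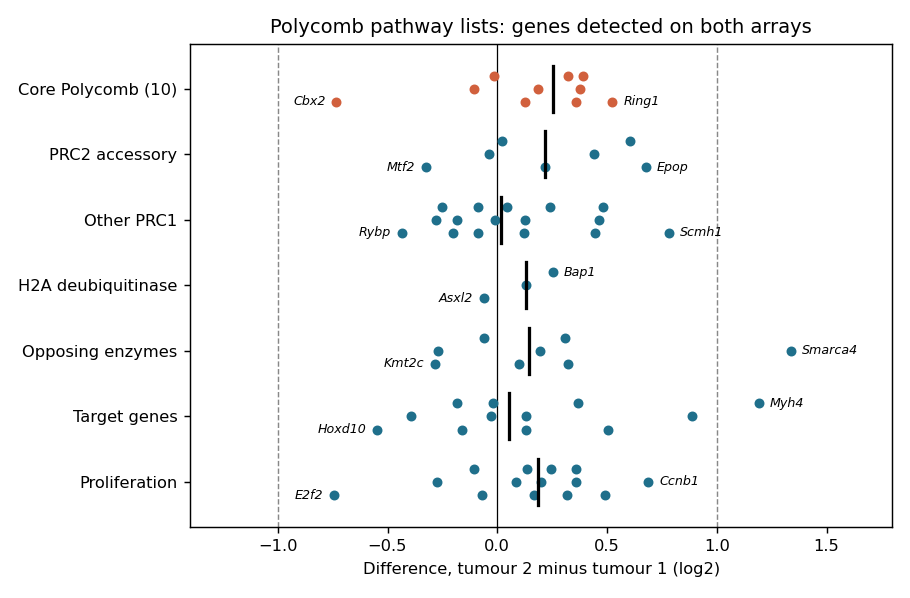
Difference between the tumours (log2, tumour 2 minus tumour 1) of each gene detected on both arrays, 1 point per gene, for the Polycomb genes, the lists of the pathway and the proliferation genes (1 band each; cell type markers are not drawn), with the median as a black bar and the lowest and highest gene named. In these bands only Smarca4 at 1.34 and Myh4 at 1.19 pass the dashed lines at 2-fold.

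Dividing-cell genes and markers of other cells give the setting of these values. The counts by direction of all lists stand against 51.6% of all detected genes higher in tumour 1, or 66.2% with all unflagged spots. Of 20 proliferation genes 14 were detected on both arrays away from flags, 10 of them higher in tumour 2, with a median of 0.18. They ran from E2f2 at -0.75 to Ccnb1 at 0.69, and with all unflagged spots 9 of 20 were higher in tumour 2, among them Bub1 at 2.90 on a spot near a flag. Of 7 muscle lineage genes with a usable spot 5 were detected, Des at 1.24, Myh3 at 1.07, Myog at 0.13, Myod1 at -0.35 and Myf6 at -0.48 (median 0.13), while Myf5 and Pax7 were in neither tumour. All 5 endothelial markers were higher in tumour 1 (-0.97 to -0.03; 4 of 5 with all unflagged spots), as were 4 of 5 fibroblast markers (-1.95 to 0.28). Macrophage markers were detected in 3 of 4 cases (-0.64 to 0.22), T cell markers in 1 of 4 and B cell markers in 0 of 2. Both detected keratinocyte markers (3.55 and 3.64), both erythroid markers (0.89 and 0.98) and both neutrophil markers (0.36 and 0.47) were higher in tumour 2. Polycomb genes are expressed in most of these cell types, and the part of cell mixture in their differences was not tested. In bulk RNA fewer cells of a type and less RNA per cell cannot be told apart.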

How the data were processed

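RNA of 2 tumours (1.0 µg each) was hybridised to 2 single-colour arrays of 1 slide, so the slide is shared. Per the file headers, the deposited intensity values were written by Agilent Feature Extraction 9.1.3.1, with background subtraction, detrending and surrogates for low values, whereas the submitters' processing notes give version 8. The deposited value table equals the processed signal intensity at all 45018 spots. The genome build was not given in the sources used here.

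Flagged spots, and spots within 2 rows and columns of a flag of array 1 or of a local background above 100 on array 2, were left out on both arrays, which left 31299 spots. Each array was divided by its 75th percentile, repeat spots of a probe were averaged as log2 values, and a gene took the median of its detected, unsaturated probes. Detection asked for the well-above-background call on at least 50% of a probe's spots. Names came from the file of array 2, updated through RefSeq accessions. The named genes are the 10 Polycomb genes and genes of the lists by role. Members, lists and the left-out area were chosen with earlier results of these data known. With 1 tumour a side no test was run. Alternatives were all unflagged spots, the lower rows, normexp, quantile, loess, median and no scaling, other filters and the brightest probe, with a normexp refit added after seeing the data. Python 3.11.15 and R 4.3.3 with limma 3.58.1 were used. On data simulated for tumour 2 minus tumour 1 (14720 genes, spot noise 0.2), 100% of 100 genes changed 4-fold were called 2-fold apart. Of 100 genes changed 2-fold 51.0% were called, which follows from a change set at the cutoff itself. Of 14520 unchanged genes 0.02% were called, against 6.45% of the genes in the data. The simulation therefore checks the calling step only.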

Additional observations from a re-analysis of the deposited data

How the results depend on the processing

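None of the 10 genes was 2-fold apart except under the planned normexp correction, which put 6 of the 10 genes at 2-fold or more and moved their median to 1.24 and the median of all genes to 0.68. Refitted without the 11 spots of high background on array 2, it left 0 of 10 genes 2-fold apart, with Cbx2 at -0.44 and Ring1 at 0.40. The rows below the flagged area held 6 Polycomb spots, and 5 of the genes were detected there. The remaining spot, the Cbx2 probe A_51_P300245, was not above background in either tumour. With all unflagged spots the median of the 10 genes was -0.11, Suz12 -0.14 and Bmi1 -0.22. Without a detection filter, Cbx2 was at -0.46. Outside the planned normexp correction, Cbx2 minus Cbx8 ranged from -1.29 to -0.79 and Ring1 minus Rnf2 from 0.27 to 0.66. Under that correction they were 0.24 and 2.51, while Cbx2 minus Cbx7 was -0.08 and Ezh2 minus Ezh1 -3.22. Over all genes 900 were 2-fold apart, against 1949 with all unflagged spots, 422 in the lower rows, 6783 with normexp, 322 in its refit, 2228 without a filter and 191 among the brighter probes, which measured 4 Polycomb genes. The share of these that was higher in tumour 2 was 40.1%, against 24.4% unscaled (median of all genes -0.16), 90.0% with normexp, 53.4% in its refit and 56.0% among the brighter probes. No paired analysis was possible because there is 1 group. Leaving out either tumour leaves 10 detected genes by construction. Low signal over background limits Ezh1, Cbx2, Cbx7, the Ring1 probe A_52_P41728 and the Cbx8 probe A_52_P89273.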
